A study of Mus musculus with 48 samples.

Results

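The proteasome subunit genes measured here numbered 41 of the 20702 genes on the arrays. They were taken as every gene whose symbol starts with Psma, Psmb, Psmc, Psmd or Psme and ends in a number, without Psmb8 and Psmb9, and each gene was represented by the transcript cluster with the highest mean in the tissue. Most members (35) had 1 cluster and 6 had several, namely Psma3, Psma5, Psmb3, Psmc1, Psmd2 and Psme2. Values of these 6 are those of the cluster kept, and the map positions of their clusters were not checked. It is therefore not known whether the cluster kept reads the gene itself. Psma3, Psma5, Psmb3 and Psmd2 are among the liver calls below, and these calls carry that limit. By role they were 14 genes of the core particle (alpha ring Psma1 to Psma7 and beta ring Psmb1 to Psmb7), 17 of the regulatory particle (the base ATPases Psmc1 to Psmc6, the base subunits Psmd1, Psmd2 and Psmd4, and the lid subunits Psmd3, Psmd6, Psmd7, Psmd8, Psmd11, Psmd12, Psmd13 and Psmd14), 3 inducible or tissue-restricted core genes (Psmb10, Psma8 and Psmb11), 3 chaperones of base assembly (Psmd5, Psmd9 and Psmd10) and 4 activators (Psme1 to Psme4).

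The proteasome is the protease that degrades proteins tagged with ubiquitin. Its barrel-shaped core holds the proteolytic sites on beta subunits, and the regulatory particle caps the barrel, where the lid removes ubiquitin and the base ATPases unfold the substrate and thread it inside. Interferon exchanges the catalytic beta subunits for inducible ones, of which Psmb10 is a member and Psmb8 and Psmb9 are the partners, and Psme1 and Psme2 encode the interferon-induced activator that can take the place of the regulatory particle. In many cells the subunit genes are induced together by the factor Nfe2l1 when proteasome activity is low.

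RNA came from liver and from a gut sample that the labels write as Gut (DI), in male C57BL/6J mice that were all fed a normal diet and kept in 12 h of light and 12 h of dark. They differed in the diet of the mice whose faeces they had received, which was High Fat (HF), Ketogenic (KD) or Normal Chow (NC). Sampling was at ZT0 or ZT12, the start of the light or of the dark phase in zeitgeber time. Each of the 12 groups of tissue, donor and time had 4 arrays, 48 in all. The protocols also mention germ-free mice, HFD (as written there) and antibiotics, without saying which samples they concern. Nothing beyond the titles says that the arrays of a group came from separate animals. The p-values therefore measure the spread between these arrays, which may be technical. Array medians lay between 88.18 and 104.4 intensity units in liver and between 124.9 and 135.8 in gut. Summed intensities of the 7 hepatocyte markers were 68491 to 81371 in liver against 13527 to 21296 in gut, and those of the 4 measured goblet cell markers were 26807 to 32820 in gut against 456 to 1944 in liver. Levels below are log2(intensity + 16) after quantile normalisation within the tissue, and differences are log2 fold changes on that scale, which understates changes of dim genes. A gene was called when its adjusted p in limma, by Benjamini-Hochberg over all 20702 genes, lay below 0.05.

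Promoter sequences were available for 34 of the 41 members, in 37 windows of 300 bases (RefSeq, GRCm38.p6); Psma8, Psmb1, Psmb2, Psmb7, Psmc3, Psmd3 and Psmd7 had none. Both strands were searched for 3 motifs, and no matches of different motifs overlapped. The E-box CACGTG, the sequence that the CLOCK and BMAL1 pair binds, lay in 7.15% of all 32851 windows and in those of 4 members: Psmb10, Psmd9, Psme3 and Psma4. The antioxidant response element core TGACNNNGC lay in 12.4% of all windows and in those of 6 members, Psmb5, Psmb6, Psmc6, Psmd9, Psmd12 and Psme4. The CCAAT box lay in 37.4% of all windows and in those of 13 members. The first 3 sequences below are shown because those genes differed most in the positive direction between the time-of-day differences of liver and gut; their capitals mark the E-box. Psmb5 and Psmb6 encode catalytic subunits, and their capitals mark the antioxidant response element core. Psmd11 had the largest time-of-day difference of all members, and its window held none of the 3 motifs. Each sequence is the 250 bases before the start site: Psmb10 at chr8:105938393-105938642 (minus strand), Psmd9 at chr5:123227940-123228189 (plus strand), Psme3 at chr11:101315963-101316212 (plus strand), Psmb5 at chr14:54617996-54618245 (minus strand), Psmb6 at chr11:70525107-70525356 (plus strand) and Psmd11 at chr11:80428365-80428614 (plus strand).
Psmb10: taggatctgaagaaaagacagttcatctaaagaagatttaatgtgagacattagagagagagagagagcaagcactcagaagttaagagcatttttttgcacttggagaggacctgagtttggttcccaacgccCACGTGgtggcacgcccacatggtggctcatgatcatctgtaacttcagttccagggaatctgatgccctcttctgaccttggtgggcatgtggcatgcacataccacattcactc
Psmd9: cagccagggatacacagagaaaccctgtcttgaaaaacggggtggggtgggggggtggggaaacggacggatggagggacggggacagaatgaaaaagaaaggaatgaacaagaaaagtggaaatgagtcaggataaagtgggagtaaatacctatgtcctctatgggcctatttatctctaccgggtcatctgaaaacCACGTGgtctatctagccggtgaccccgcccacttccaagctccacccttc
Psme3: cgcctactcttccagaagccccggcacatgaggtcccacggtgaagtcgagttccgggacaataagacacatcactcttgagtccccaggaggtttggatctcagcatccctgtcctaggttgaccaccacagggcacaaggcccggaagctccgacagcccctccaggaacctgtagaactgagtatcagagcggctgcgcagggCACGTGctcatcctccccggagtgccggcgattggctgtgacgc
Psmb5: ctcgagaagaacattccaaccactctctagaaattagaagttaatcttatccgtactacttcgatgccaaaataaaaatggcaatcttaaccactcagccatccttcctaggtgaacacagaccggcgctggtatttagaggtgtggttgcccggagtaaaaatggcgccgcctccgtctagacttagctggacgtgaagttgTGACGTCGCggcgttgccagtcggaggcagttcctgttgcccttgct
Psmb6: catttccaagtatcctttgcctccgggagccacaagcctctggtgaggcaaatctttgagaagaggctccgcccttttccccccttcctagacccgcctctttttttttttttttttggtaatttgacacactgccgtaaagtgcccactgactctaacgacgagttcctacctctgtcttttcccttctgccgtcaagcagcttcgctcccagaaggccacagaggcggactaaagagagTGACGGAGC
Psmd11: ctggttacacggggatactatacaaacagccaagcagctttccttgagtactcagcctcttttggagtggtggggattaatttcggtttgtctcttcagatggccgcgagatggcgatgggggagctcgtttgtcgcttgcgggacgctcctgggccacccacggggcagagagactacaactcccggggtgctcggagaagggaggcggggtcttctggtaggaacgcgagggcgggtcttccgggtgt

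In liver, proteasome genes were mostly lower at ZT12 than at ZT0. Averaged over the 3 donor groups, 19 members fell, where 14.5% of all genes fell, and 3 rose, where 14.1% of all genes rose. The fall was spread over the complex: 6 of 14 core genes and 11 of 17 regulatory particle genes fell, none of either rose, and the other 2 that fell were the base chaperones Psmd5 and Psmd10. The median log2 fold change was -0.15 over the regulatory particle genes, with all 17 below 0, and -0.07 over the core genes, with 13 of 14 below 0, beside 0.011 over all genes. The genes that rose were the inducible Psmb10, the activator Psme1 and the base chaperone Psmd9. In bulk tissue, fewer cells of a type and less RNA per cell cannot be told apart.

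**Figure D1:**
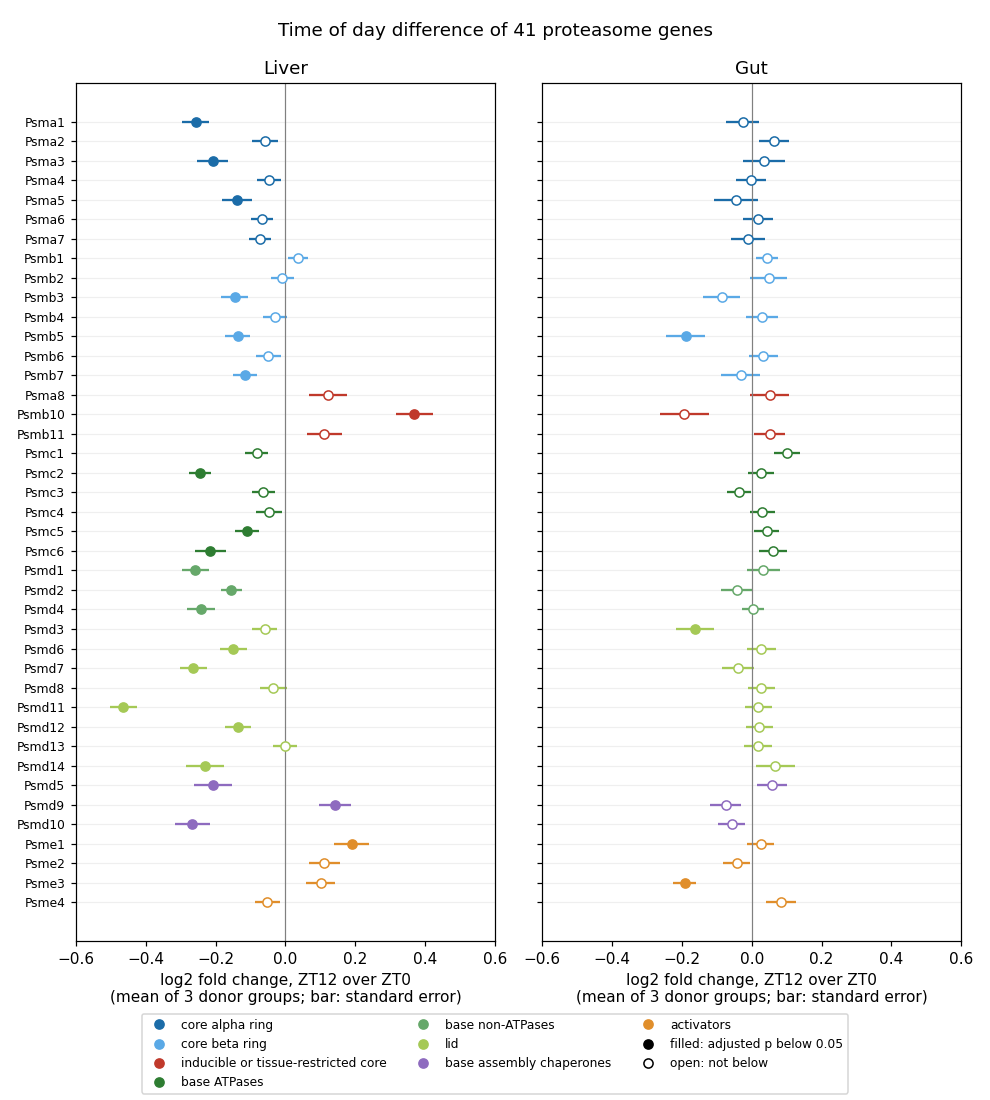
Log2 fold change of ZT12 over ZT0 for each of the 41 genes, in liver (left) and gut (right), averaged over the 3 donor groups, with standard errors as bars and colours by role; filled points had an adjusted p below 0.05. In liver 19 genes are filled to the left of 0 and 3 to the right, and in gut 3 are filled, all to the left.

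Psmd11, a lid subunit that joins the lid to the base, fell most in liver. In the NC group its levels were 10.65, 10.80, 10.73 and 10.75 at ZT0 and 10.13, 10.26, 10.28 and 10.20 at ZT12. In the HF group they were 10.73, 10.53, 10.83 and 10.68 at ZT0 and 10.28, 10.27, 10.23 and 10.36 at ZT12. In the KD group they were 10.70, 10.83, 10.69 and 10.52 at ZT0 and 10.21, 10.23, 10.26 and 10.16 at ZT12. All 12 arrays of ZT12 lay below all 12 of ZT0. The log2 fold change was -0.46 (standard error 0.039, limma adjusted p = 2.58e-09), a linear ratio of 0.725, and it was -0.52, -0.41 and -0.47 in the NC, HF and KD groups.

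Other regulatory particle genes fell by a smaller amount. Psmd7, the lid partner of the deubiquitinase Psmd14, had levels from 9.50 to 9.71 (median 9.59) in the 12 arrays of ZT0 and from 9.12 to 9.53 (median 9.32) in the 12 of ZT12, and 11 of the 12 later arrays lay below every earlier one; its log2 fold change was -0.26 (standard error 0.039, limma adjusted p = 1.30e-05). Psmd1, the scaffold of the base that holds ubiquitin receptors, went from 9.89 to 10.21 (median 10.06) at ZT0 to between 9.71 and 9.89 (median 9.78) at ZT12, with the same 11 of 12 below, and a log2 fold change of -0.26 (standard error 0.039, limma adjusted p = 1.76e-05). The base ATPase Psmc2 had 9.36 to 9.62 (median 9.53) at ZT0 and 9.16 to 9.38 (median 9.27) at ZT12, and a log2 fold change of -0.24 (standard error 0.033, limma adjusted p = 3.77e-06). The times overlapped for Psmc2 in 2 of the 12 later arrays. The ubiquitin receptor Psmd4 (-0.24), Psmd14 (-0.23), the ATPases Psmc6 (-0.22) and Psmc5 (-0.11), the base subunit Psmd2 (-0.16) and the lid subunits Psmd6 (-0.15) and Psmd12 (-0.14) completed the 11. The 6 regulatory particle genes that were not called, Psmc1, Psmc3, Psmc4, Psmd3, Psmd8 and Psmd13, had log2 fold changes between -0.082 and -0.00074.

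In the core, the alpha ring subunit Psma1 had the largest fall. Its levels ran from 9.36 to 9.70 (median 9.59) at ZT0 and from 9.18 to 9.49 (median 9.31) at ZT12, 9 of 12 later arrays lay below every earlier one, and the log2 fold change was -0.26 (standard error 0.039, limma adjusted p = 1.82e-05). The alpha ring genes Psma3 (-0.21) and Psma5 (-0.14) fell as well. Of the 3 constitutive catalytic subunits, Psmb5, the chymotrypsin-like one, went from 8.72 to 8.95 (median 8.83) at ZT0 to between 8.55 and 8.86 (median 8.70), a log2 fold change of -0.14 (standard error 0.037, limma adjusted p = 0.00692). Psmb7, the trypsin-like one, went from 10.33 to 10.58 (median 10.47) to between 10.28 and 10.47 (median 10.34), a log2 fold change of -0.12 (standard error 0.036, limma adjusted p = 0.0170). Psmb6, the caspase-like one, was not called, with 10.61 to 10.81 (median 10.76) at ZT0, 10.60 to 10.84 (median 10.68) at ZT12 and a log2 fold change of -0.05 (limma adjusted p = 0.323). The times overlapped for all 3 catalytic subunits. The beta ring subunit Psmb3 (-0.14) fell, and the 7 other core genes that were not called had log2 fold changes between -0.073 and 0.037.

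Psmb10, the inducible trypsin-like subunit, went the other way in liver. Its levels in the NC group were 8.18, 8.06, 8.38 and 8.17 at ZT0 and 8.64, 8.55, 8.78 and 8.81 at ZT12. In the HF group they were 8.43, 8.11, 8.19 and 8.26 at ZT0 and 8.57, 8.43, 8.49 and 8.44 at ZT12. In the KD group they were 8.17, 8.29, 8.33 and 8.29 at ZT0 and 8.93, 8.60, 8.44 and 8.61 at ZT12. The times were apart in the NC and KD groups and met at 8.43 in the HF group, and 11 of the 12 later arrays lay above every earlier one. The log2 fold change over the donor groups was 0.37 (standard error 0.052, limma adjusted p = 8.92e-06), a linear ratio of 1.29, and it was 0.50 in the NC group, 0.38 in the KD group and, where it was not called (limma adjusted p = 0.124), 0.23 in the HF group.

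Psme1, a subunit of the interferon-induced activator, rose by a log2 fold change of 0.19 (standard error 0.050, limma adjusted p = 0.00634), from 10.57 to 10.96 (median 10.70) at ZT0 to between 10.62 and 11.06 (median 10.96) at ZT12. The times overlapped for Psme1, with 5 of 12 later arrays above every earlier one. Its partner Psme2 was not called in the fit of all arrays, with a log2 fold change of 0.11 (limma adjusted p = 0.0660) between 8.73 to 9.07 (median 8.95) and 8.88 to 9.17 (median 9.05). Psme2 was called (limma adjusted p 0.0252 to 0.0487) without KD ZT0 replicate 5, KD ZT0 replicate 7, NC ZT0 replicate 1, KD ZT12 replicate 13 or NC ZT12 replicate 7. It was also called in limma without dim genes (adjusted p = 0.042), with array weights (0.0162) and with every cluster fitted singly (0.0322). Among the base chaperones, Psmd9 rose by 0.14 (standard error 0.046, limma adjusted p = 0.0229), from 7.85 to 8.25 (median 8.09) to 7.99 to 8.42 (median 8.19), a call that was lost without the quantile step (limma adjusted p = 0.0714). Psmd10, also known as gankyrin, fell by 0.27 on the log2 scale (standard error 0.049, limma adjusted p = 0.000208), from 7.17 to 7.61 (median 7.39) to 6.95 to 7.40 (median 7.09), and Psmd5 had a log2 fold change of -0.21. The testis-restricted Psma8 had levels of 6.83 to 7.51 at ZT0 and 7.22 to 7.54 at ZT12, and the thymus-restricted Psmb11 had 6.12 to 6.71 and 6.34 to 6.59. Neither was called (log2 fold changes 0.12 and 0.11), nor were the activators Psme3 (0.10) and Psme4 (-0.05). Some other settings called them in limma. Psma8 was called without the quantile step (adjusted p = 0.0326) or HF ZT0 replicate 5 (0.0318). Psmb11 was called without the quantile step (0.0114), with array weights (0.0134) or without KD ZT0 replicate 7 (0.0145). Psme3 was called without dim genes (0.0436), with array weights (0.0321), or without KD ZT0 replicate 7 (0.0235) or HF ZT12 replicate 9 (0.0408). Psme4 was not followed in these settings.

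The donor groups were also tested one by one in liver. In the NC group 2 members were higher and 8 lower at ZT12, beside 4.51% and 4.85% of all genes (9.36% in either direction). In the HF group 0 were higher and 7 lower, beside 3.4% and 4.41% (7.81% in either direction). In the KD group 1 was higher and 5 lower, beside 3.79% and 4.88% (8.68% in either direction). Psmd11, Psmd1, Psmd4, Psmc2 and Psmd7 were lower in each of the 3 tests, and these 5 are all regulatory particle genes. The regulatory particle held 7 of the 8 lower members in the NC group, 5 of 7 in the HF group and 5 of 5 in the KD group. By overlap of arrays, 10 members had all 4 arrays of ZT12 below all 4 of ZT0 in the NC group (8.3% of all genes), 14 in the HF group (8% of all genes) and 9 in the KD group (6.55% of all genes). Psma1, Psmc2, Psmd1, Psmd7 and Psmd11 were apart in this way in all 3 donor groups. In the other direction, 4 members had all arrays of ZT12 above all of ZT0 in the NC group, Psmb10, Psmb11, Psme1 and Psme3 (7.92% of all genes), 0 in the HF group (6.82%) and 2 in the KD group, Psmb10 and Psmd9 (5.42%). The HF count of 7 became 4 without HF ZT0 replicate 2, HF ZT0 replicate 4 or HF ZT12 replicate 13, each left out alone.

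**Figure D2:**
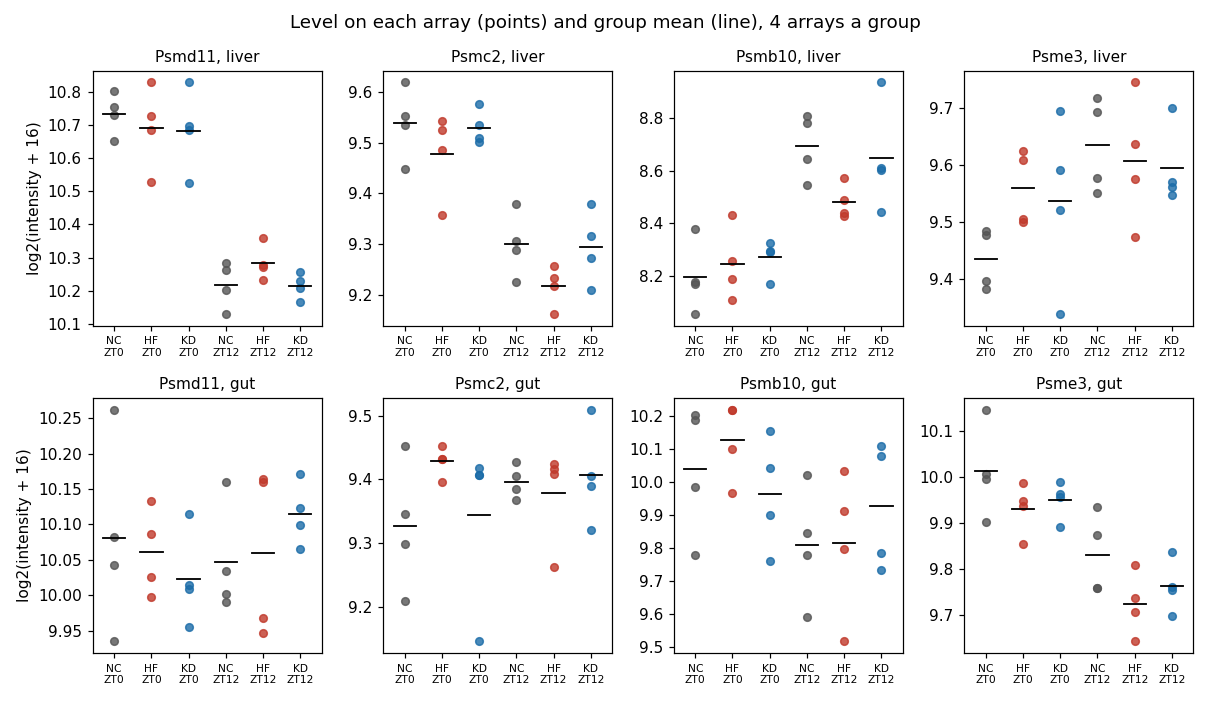
Levels, as log2(intensity + 16), of the lid gene Psmd11, the ATPase gene Psmc2, the inducible core gene Psmb10 and the activator gene Psme3 on each array (points), by donor and time, with the group mean as a line, in liver (top) and gut (bottom). The 12 liver arrays of ZT12 lie below the 12 of ZT0 for Psmd11, with no such gap in gut, and Psmb10 is higher at ZT12 in liver.

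On the liver arrays the mean of the regulatory particle genes fell by more than that of the core genes, a difference that was not tested. The mean level of the 14 core genes changed from ZT0 to ZT12 by -0.10 in the NC group, -0.11 in the HF group and -0.08 in the KD group, and that of the 17 regulatory particle genes by -0.18, -0.15 and -0.16. The core mean minus the regulatory mean, which has no meaning as a level because probes differ, was 0.14, 0.154, 0.171 and 0.205 on the NC arrays of ZT0 and 0.239, 0.23, 0.25 and 0.27 on those of ZT12, so that the times were apart. In the HF group it ran from 0.176 to 0.216 at ZT0 and from 0.22 to 0.299 at ZT12, also apart, and in the KD group from 0.115 to 0.224 and from 0.193 to 0.277, which overlapped. In gut the same measure ran from 0.284 to 0.41 over all arrays of ZT0 and from 0.251 to 0.421 over those of ZT12, and the group means moved by -0.03, -0.02 and -0.00 in the NC, HF and KD groups.

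**Figure D3:**
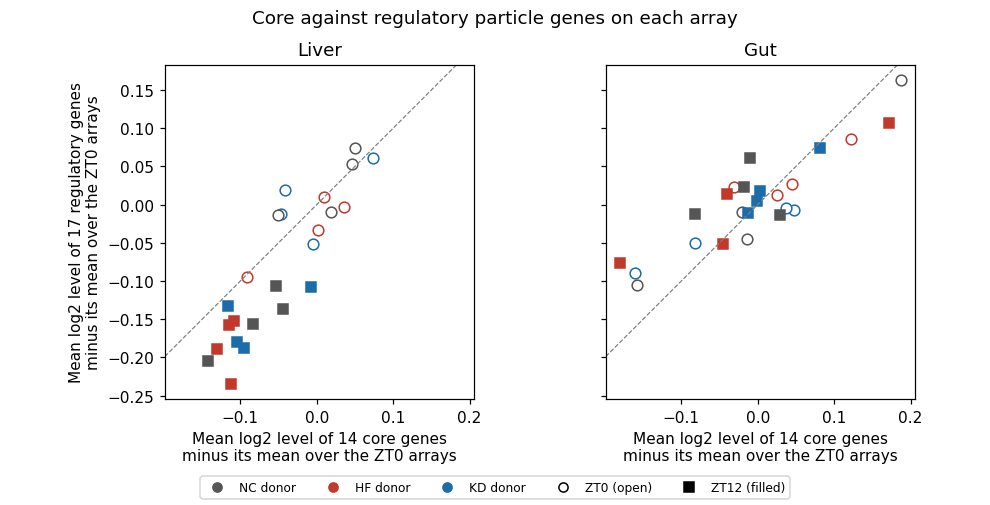
Mean log2 level of the 17 regulatory particle genes against that of the 14 core genes on each array, both as the difference from the mean of the 12 arrays of ZT0 in the tissue; open circles are ZT0, filled squares ZT12, colours are donors, and the dashed line marks equal change. The 12 liver squares lie below 0 on both axes and below the line, and the gut times are mixed along it.

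In gut, time of day moved few members. Averaged over the donor groups, 3 fell, where 9.79% of all genes fell, and 0 rose, where 11.1% of all genes rose; the median log2 fold change was 0.027 over regulatory particle genes and 0.008 over core genes, beside 0.001 over all genes. Within donor groups the signs differed. With HF donors 31 of 41 members lay below 0 (median -0.038 for the core and -0.048 for the regulatory particle), where 50.5% of all genes lay above 0. With KD donors 35 of 41 lay above 0 (0.058 and 0.056), beside 52.3% of all genes, and with NC donors 22 did, beside 48.4%. Members were read on the same arrays, so these counts do not show that the donor groups differed. The core mean went from 9.908 (standard deviation 0.064) to 9.844 (0.145) with HF donors. With KD donors it went from 9.828 (0.1) to 9.885 (0.043). In the test of the change between times, no member passed for HF or KD against NC donors; HF against KD was not tested. Psme3, the activator found in the nucleus, went from 9.85 to 10.15 (median 9.96) at ZT0 to between 9.64 and 9.93 (median 9.76) at ZT12, with 10 of 12 later arrays below every earlier one, and a log2 fold change of -0.19 (standard error 0.034, limma adjusted p = 0.000363). Psmb5 went from 8.56 to 8.99 (median 8.82) to between 8.37 and 8.81 (median 8.60), a log2 fold change of -0.19 (standard error 0.056, limma adjusted p = 0.0202). The lid gene Psmd3 went from 8.87 to 9.47 (median 9.18) to between 8.83 and 9.20 (median 9.04), a log2 fold change of -0.16 (standard error 0.055, limma adjusted p = 0.0374). The times overlapped for all 3 genes. The Psmd3 call was lost, with limma adjusted p from 0.05 to 0.0724, when any of 11 arrays was left out alone: HF ZT0 replicates 4 and 5, KD ZT0 replicates 5 and 6, NC ZT0 replicates 1 and 4, HF ZT12 replicates 9 and 12, KD ZT12 replicates 8 and 12, or NC ZT12 replicate 11. Psmb10 was not called in gut, with 9.76 to 10.22 (median 10.07) at ZT0, 9.52 to 10.11 (median 9.82) at ZT12 and a log2 fold change of -0.19 (standard error 0.070, limma adjusted p = 0.0542). It was called when any of 7 arrays was left out alone (limma adjusted p 0.0264 to 0.0462), which were HF ZT0 replicate 4, KD ZT0 replicate 4, NC ZT0 replicate 3, HF ZT12 replicate 10, KD ZT12 replicates 8 and 12 and NC ZT12 replicate 10, and also without the quantile step (0.0211), without dim genes (0.0416) and with trend and robust settings (0.0487). The other catalytic and interferon-linked members showed broad overlap in gut. Psmb6 had 10.52 to 10.90 (median 10.75) at ZT0 and 10.62 to 10.92 (median 10.79) at ZT12, and Psmb7 had 10.10 to 10.57 (median 10.31) and 10.10 to 10.58 (median 10.27). Psme1 had 10.88 to 11.19 (median 10.99) at ZT0 and 10.88 to 11.17 (median 11.03) at ZT12, and Psme2 had 9.96 to 10.21 (median 10.02) and 9.92 to 10.13 (median 10.01). Among the tissue-restricted genes, Psma8 had 6.87 to 7.53 (median 7.16) and 6.92 to 7.38 (median 7.22), and Psmb11 had 6.50 to 6.69 (median 6.58) and 6.45 to 6.86 (median 6.59). None of these 6 was called. Among the gut marker lists, 3 of 6 sinusoidal endothelial markers fell and 1 rose, 2 of 6 stellate cell and fibroblast markers, 1 of 6 crypt and cycling cell markers and 2 of 7 hepatocyte markers fell, 2 of 7 macrophage markers rose and 1 fell, and 2 of 7 enterocyte markers and 1 of 9 exocrine pancreas markers rose; their part in the gut results was not tested.

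No member was called in gut within the NC, HF or KD group alone, where 2.36%, 3.22% and 4.11% of all genes were called. No gut member had all ZT12 arrays below all ZT0 arrays in the NC group (3.97% of all genes), 5 did in the HF group (5.14%), and 1, Psme3, did in the KD group (6.42%). The 5 were Psmb3, Psmb5, Psmc4, Psmd3 and Psme3. In the other direction there were 0 in the NC group (3.8% of all genes), 0 in the HF group (6.34%) and 2 in the KD group, Psmb1 and Psmc4 (6.89%). Psmc4 was thus apart in opposite directions, with means going from 9.43 to 9.354 with HF donors and from 9.358 to 9.448 with KD donors. It was called in neither group, and the change with HF against KD donors was not tested. Psme3 arrays in the HF group were 9.94, 9.85, 9.95 and 9.99 at ZT0 and 9.81, 9.74, 9.64 and 9.71 at ZT12. In the KD group they were 9.89, 9.99, 9.96 and 9.96 at ZT0 and 9.70, 9.84, 9.75 and 9.76 at ZT12. In the NC group they were 9.90, 10.01, 10.15 and 9.996 at ZT0 and 9.76, 9.87, 9.76 and 9.93 at ZT12, and there the times overlapped. At unadjusted p under 0.05 in limma, 2, 6 and 2 members were counted in the NC, HF and KD groups. The same threshold passed 3068, 3990 and 4276 of all 20702 genes in these groups. The 3 calls averaged over donors became 5 without KD ZT0 replicate 4 or NC ZT12 replicate 10, and within the HF group 2 were called without HF ZT12 replicate 10.

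The time-of-day difference was set against that of the other tissue in 1 fit over all 48 arrays. It was lower in liver than in gut for 15 members, where 9.06% of all genes were lower, and higher for 3, where 8.76% were higher. Of the 15, 11 were among the 17 regulatory particle genes and 2, Psma1 and Psma3, among the 14 core genes, and the other 2 were Psmd5 and Psmd10. The median difference was -0.18 over the regulatory particle genes and -0.07 over the core genes, beside 0.004 over all genes. For Psmd11 the liver difference minus the gut difference was -0.50 (standard error 0.057, limma adjusted p = 5.92e-09); in gut its levels were 9.94 to 10.26 at ZT0 and 9.95 to 10.17 at ZT12. For Psmc2, whose gut medians were 9.41 at both times, it was -0.26 (standard error 0.047, limma adjusted p = 5.54e-05).

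The 3 members for which liver minus gut was higher were Psmb10 (0.58, standard error 0.093, limma adjusted p = 9.29e-06), Psme3 (0.30, standard error 0.052, limma adjusted p = 2.61e-05) and Psmd9 (0.22, standard error 0.064, limma adjusted p = 0.0120). For Psmb10 the liver difference was above 0 and the gut difference below 0, and for Psme3 they were 0.10, not called, and -0.19. These 3 are also 3 of the 4 members with an E-box among the 34 that had a promoter window. Psma4, the remaining one, had a difference of -0.05 (limma adjusted p = 0.613). Psme1 and Psme2, whose windows held no E-box, were called higher in 9 and 12 of 56 other settings. The overlap with the E-box was not tested, and the 3 genes were picked by this same difference. An E-box lay in 4 of 37 member windows, beside 7.15% of all windows. A match describes the letters of a window and is no measure of binding.

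Genes that work with the proteasome were read from lists fixed with earlier results of these data known. Among the immunoproteasome partners, the genes that act with Psmb10 in antigen processing, 4 of 8 rose at ZT12 in liver, where 14.1% of all genes rose, and 0 fell, where 14.5% fell, with a median of 0.20: Psmb9 (0.50), Tap2 (0.24), Nlrc5 (0.21) and Psmb8 (0.19). In gut 1 of the 8, Nlrc5 (0.28), rose and 3 fell, Irf1 (-0.41), Tap1 (-0.35) and Tap2 (-0.21), beside 11.1% of all genes that rose and 9.79% that fell. The liver difference minus the gut difference was higher for 5 of the 8, beside 8.76% of all genes, and lower for 0, beside 9.06%, with 0.75 for Psmb9 and 0.45 for Psmb8. The 6 T cell markers had summed intensities of 383 to 522 in liver at ZT0 and 383 to 481 at ZT12, with 0 called. In gut these sums were 655 to 1441 at ZT0 and 598 to 1078 at ZT12, with 1 of 6 lower, and the 7 B and plasma cell markers had 1260 to 5213 and 1103 to 5593, with 0 called; their part in the gut values was not tested. All 6 T cell markers and all 7 B and plasma cell markers had gut differences below 0, with medians of -0.19 and -0.25.

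In the list of ubiquitin genes and the factors that bring substrates to the proteasome, 9 of 17 fell in liver and 1 rose, with a median of -0.14, beside shares over all genes of 14.5% that fell and 14.1% that rose. Those that fell included the proteasome-binding Zfand5 (-0.56), the shuttle factor Ubqln1 (-0.46) and the segregase Vcp (-0.21). In gut 6 of 17 fell and 1 rose, beside 9.79% and 11.1% of all genes, with Zfand5 at -0.45 and Ubqln1 at -0.28. Of 14 measured assembly and associated factors, 1 rose in liver, Psmf1 (0.48), which encodes a proteasome-binding inhibitor, and 2 fell, Txnl1 (-0.26) and Ecpas (-0.09), counts near the shares over all genes. Of 12 genes for transcriptional control of the proteasome, 4 fell in liver, Nfyb (-0.35), Foxo4 (-0.23), Nfe2l2 (-0.21) and Nfe2l1 (-0.17), beside 14.5% of all genes. Of the same 12, Maff (0.17) rose, beside 14.1% of all genes. In liver 3 of the 7 Kupffer cell and macrophage markers and 3 of the 6 sinusoidal endothelial markers also fell, with summed intensities of 1840 to 4241 and 2430 to 3278 at ZT0 and of 1763 to 3167 and 2006 to 2759 at ZT12, while 1 of 7 hepatocyte markers rose. Of the other liver lists, 2 of 6 stellate cell and fibroblast markers, 2 of 6 crypt and cycling cell markers, 2 of 5 smooth muscle markers and 1 of 5 Paneth cell markers fell, and 3 of 9 exocrine pancreas markers rose. Their part in the liver results was not tested.

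No member passed the threshold between donor diets in either tissue. The comparisons of HF and of KD with NC share the NC arrays. In liver, HF minus NC at ZT0 ran from -0.30 for Psma8 to 0.14 for Psme1, and at ZT12 from -0.21 for Psmb10 to 0.16 for Psmd9. KD minus NC ran from -0.15 for Psma8 to 0.17 for Psmb11 at ZT0, and from -0.14 for Psme1 to 0.11 for Psma1 at ZT12. HF minus KD ran from -0.15 for Psma8 to 0.08 for Psmd10 at ZT0, and from -0.17 for Psmb10 to 0.08 for Psmd9 at ZT12. Over both times, HF minus NC ran from -0.13 for Psma8 to 0.05 for Psme3 and KD minus NC from -0.07 for Psma8 to 0.09 for Psme2. These differences had a median standard error of 0.066 at a single time and 0.0467 over both. The change of the donor difference from ZT0 to ZT12 ran from -0.26 for Psmb10 to 0.33 for Psma8 with HF donors and from -0.23 for Psme1 to 0.19 for Psmd9 with KD donors.

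In gut, HF minus NC ran from -0.08 for Psme3 to 0.33 for Psma8 at ZT0, and from -0.11 for Psmc4 to 0.08 for Psmb7 at ZT12. KD minus NC ran from -0.12 for Psmd7 to 0.10 for Psmd5 at ZT0, and from -0.14 for Psma8 to 0.12 for Psmb10 at ZT12. HF minus KD ran from -0.07 for Psmd5 to 0.43 for Psma8 at ZT0, and from -0.19 for Psmb3 to 0.15 for Psma8 at ZT12. Over both times, HF minus NC ran from -0.09 for Psme3 to 0.17 for Psma8 and KD minus NC from -0.12 for Psma8 to 0.08 for Psmd5. The change of the donor difference from ZT0 to ZT12 ran from -0.32 for Psma8 to 0.11 for Psmc6 with HF donors and from -0.06 for Psmc5 to 0.19 for Psmb10 with KD donors. In limma 0 of 41 members were called in each of these 20 comparisons, where 0% of all genes were called in 17 and 0.00483%, which is 1 gene, in 3. At unadjusted p under 0.05 there were 0 to 3 members per comparison, beside 462 to 2050 of all 20702 genes. A missed threshold does not show that donor groups were alike. By the p-values of the authors' deposited tables, adjusted here by Benjamini-Hochberg, 0 of 41 members passed in their 8 donor comparisons; the smallest adjusted value there was 0.366, for Psmb10 in liver with HF against NC donors at ZT12, where the authors' deposited table gives a ratio of 0.837.

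Psma8 gave the lowest or highest value in many of these comparisons. On the gut arrays of ZT0 its levels were 7.37, 7.21, 7.46 and 7.53 with HF donors, 7.26, 6.95, 7.12 and 6.92 with NC donors and 6.89, 6.87, 7.21 and 6.87 with KD donors. The HF and KD arrays touched at 7.21, and HF minus KD was 0.43 (standard error 0.097, limma adjusted p = 0.844). On the liver arrays of ZT0 the HF arrays were the lower ones, with 6.99, 7.14, 6.83 and 7.30 against 7.51, 7.37, 7.30 and 7.27 with NC donors, and the groups overlapped. The unadjusted p was 0.00351 for HF minus NC in liver and 0.000186 for HF minus KD in gut, both at ZT0.

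**Figure D4:**
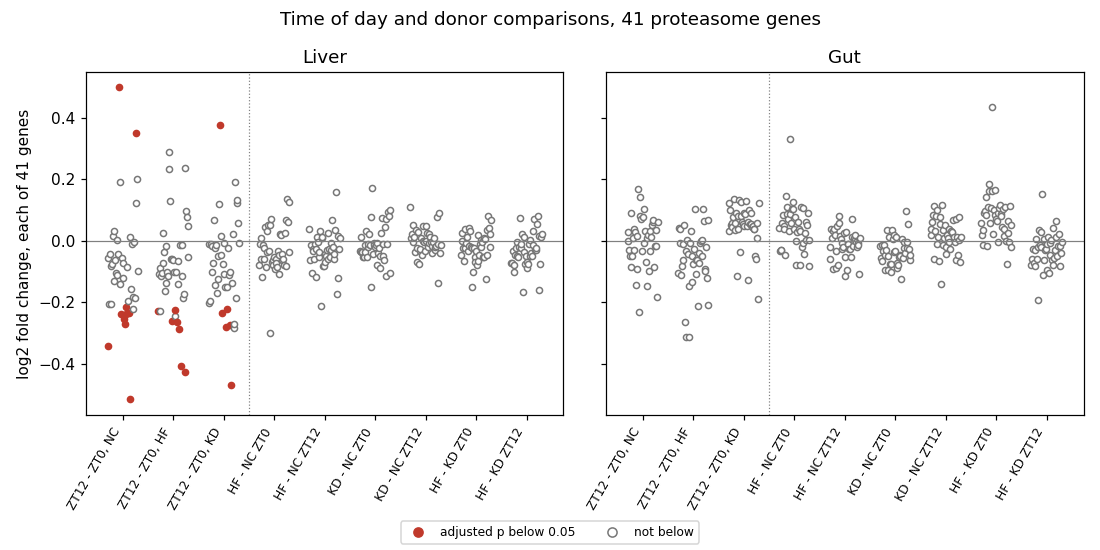
Log2 fold change of each of the 41 genes (points) in the time-of-day comparisons within each donor group (left of the dotted line) and in the 6 donor comparisons at a single time (right of it), for liver and gut; red points had an adjusted p below 0.05. Red points lie in the 3 liver time comparisons only, and the outlying gut points of HF minus NC and HF minus KD at ZT0 are Psma8.

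Between the tissues, 29 members were higher in liver, where 46% of all genes were higher, and 11 were lower, where 38% were lower, after quantile normalisation over all 48 arrays; Psmb4 (0.01) was not called. With the arrays left on their deposited scale, 9 were higher and 25 lower, and with each tissue normalised apart the split was the same, with 13 of the 40 called members turned on each of these scales, so values are best read against the median of all genes, 0.042 with common quantiles and -0.26 on the deposited scale. The regulatory particle median lay above the core median on each scale: the median was 0.27 over regulatory particle genes and 0.10 over core genes with common quantiles, and -0.12 and -0.28 on the deposited scale. Psmd9 (0.92), Psmd12 (0.90) and Psmd11 (0.75) were highest. The inducible Psmb10 (-1.12), Psmd10 (-0.70) and Psme2 (-0.67) were lowest. Levels of Psmb10 on the common scale were thus a ratio of 0.459 in liver to those in gut (standard error 0.047 on the log2 scale, limma adjusted p = 3.86e-25).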

How the data were processed

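The 48 arrays were deposited as 1 intensity per transcript cluster, which the authors made with PLIER, per the submitters' processing notes; for its version and settings the sources used here give nothing. The authors' deposited tables also give, per the file headers, a p-value and a ratio of group means for HF and KD against NC donors at each time and tissue; the 64 array columns of those tables equal columns of the value table. The members and gene lists were chosen with earlier results of these data known. Values of some genes of the ubiquitin list are not reported here.

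Intensities were taken as log2(intensity + 16) and quantile normalised within a tissue, or over all 48 arrays to compare tissues. Each gene kept the cluster with the highest mean in the tissue. Group means were fitted with limma 3.58.1 (R 4.3.3; lmFit, eBayes, two-sided), with 18 residual degrees of freedom within a tissue, before moderation, and 36 over both. P-values were adjusted by Benjamini-Hochberg over 20702 genes with a threshold of 0.05. The fit was tested on simulated data with known changes. Python 3.11.15 and matplotlib 3.10.9 were used for promoter searches and plots. The number of arrays limits the precision.

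Values per array, with ranges for most, were given for members called in the time comparisons (up to 6 per tissue and direction, by size). They were also given for up to 4 members by p in the comparison between tissues. Psmb5, Psmb6, Psmb7, Psmb10, Psme1, Psme2, Psma8 and Psmb11 were always included. For the lowest and highest member of each donor comparison the log2 fold change was given. Replicate numbers come from the titles. Deviations of same-numbered arrays in different groups had a mean correlation of -0.084 over 14 pairs in liver and 0.002 over 16 pairs in gut, so the numbers were not taken to pair the arrays. Of 33 mouse codes in the titles, 15 occur in both tissues, and the deviations of the same mouse had a mean correlation of 0.018. Alternatives were the offset, the scaling, a filter on dim genes, trend and robust settings, array weights and fitting only the groups compared. Others were fitting every cluster singly, the replicate number and the mouse as blocks, and leaving out each array.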

Additional observations from a re-analysis of the deposited data

Results flagged for a closer look

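Arrays that stood far from the other 3 of their group were found for 8 of 204 groups of a named member (3.92%), and chance gives about 1 in 20. In liver, Psme2 read 8.94 on KD ZT12 replicate 13 against 9.13 to 9.17 on the others, and Psme3 read 9.70 on KD ZT12 replicate 8 against 9.55 to 9.57. In gut, Psmc2 read 9.26 on HF ZT12 replicate 12 against 9.41 to 9.42, and 9.14 on KD ZT0 replicate 4 against 9.41 to 9.42. Psma8 read 7.21 on gut KD ZT0 replicate 5 against 6.87 to 6.89, Psme2 read 10.17 on gut KD ZT0 replicate 1 against 9.96 to 9.99, and Psmd7 read 9.65 on gut NC ZT0 replicate 4 against 9.35 to 9.38. Psme1 read 10.93 on gut NC ZT12 replicate 9 against 11.03 to 11.04.

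The time-of-day difference was unlike in liver and gut, by the test of that difference, for 9 named members. Over all genes 17.8% were called in this test. Some named members were picked by this same test or by their liver time calls, so the count of 9 does not describe the family. Liver minus gut was -0.50 for Psmd11, -0.28 for Psmd1, -0.26 for Psmc2, -0.22 for Psma1, -0.22 for Psmd10 and -0.21 for Psmd7. It was 0.58 for Psmb10, 0.30 for Psme3 and 0.22 for Psmd9.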

How the results depend on the processing

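With the replicate number as a block, no gut time comparison could be estimated, because no number occurs at both times there. In liver only number 7 occurs at both times, on 1 array of ZT0 and 2 of ZT12, so the block leaves the time comparisons resting on those arrays; its 0 calls in the NC, HF, KD and averaged comparisons (10, 7, 6 and 22 without it) and the changed signs of Psmb7 (0.023), Psmd10 (0.11) and Psmd9 (-0.12) say nothing of stability. Donor comparisons with the block called 0 members. The mouse as a block, with a correlation of 0.0292, changed no count. The liver HF count of 7 became 11 without dim genes, 4 with only the groups compared and 11 with array weights, the KD count of 6 became 10 without dim genes and 3 with only the groups compared, and the NC count of 10 became 17 with array weights. In gut, the HF count of 0 became 2 without the quantile step and 1 without dim genes, with trend and robust settings or with array weights, the KD count of 0 became 1 without the quantile step, without dim genes or with array weights, and the averaged count of 3 became 5 without dim genes. Leaving out 1 array gave 4 to 9 members in the liver HF comparison, 0 to 2 in the gut HF one, 2 to 5 in the averaged gut one and 22 to 25 in the averaged liver one. Between tissues, on the deposited scale and with each tissue normalised apart, the medians were -0.28 for the core and -0.12 for the regulatory particle; 13 of the 41 members were called in the opposite direction, and among the 17 named members the values that changed sign were Psmb11 (-0.20), Psmb6 (-0.037 and -0.038), Psmd3 (-0.18), Psme3 (-0.31) and Psme1 (-0.19 and -0.20). The call of Psmd10 for its time difference in liver minus gut was lost on the deposited scale (limma adjusted p = 0.145). Apart from the scaling between tissues, the causes were not tested. No donor comparison called a member when 1 array was left out. Dim members such as Psma8 and Psmb11 limit what can be read from small differences. In liver the called Psmd10 was as dim, with a mean level of 7.26 beside 7.27 for Psma8.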
